A study of Mus musculus with 6 samples.

Results

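The 53 genes described here encode enzymes of glycolysis, the pentose phosphate pathway and the citrate cycle, with the pyruvate dehydrogenase complex and a few enzymes at their branch points. They were chosen by gene symbol for these functions and matched to Ensembl identifiers, and all 53 were found among the 22271 genes of the count table. RNA-seq counts were compared between 2 progenitor populations that were FACS-sorted out of mouse bone marrow, strain C57BL/6JRj, with WT in every sample title. The labels call them CD27 high MODP (3 libraries) and CD27 low MOP (3 libraries). By the series' title, a common progenitor of macrophages, osteoclasts and dendritic cells gives rise to one limited to macrophages and osteoclasts. The labels used here give no age, sex or treatment, and do not say whether a library came from 1 animal or from pooled animals.

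Glycolysis splits glucose into pyruvate through a chain of cytosolic enzymes, of which hexokinase, phosphofructokinase and pyruvate kinase catalyse the steps that are hardest to reverse. The pentose phosphate pathway branches off after hexokinase and yields NADPH and ribose phosphate, and the pyruvate dehydrogenase complex passes pyruvate into the citrate cycle as acetyl-CoA. Several of these steps are served by isozymes encoded by separate genes.

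Promoter sequences are shown for Hk2 and Pfkfb3, glycolytic genes that moved in opposite directions, and for G6pdx, the gene with the largest change of the set. Each is the 250 bases before the start site in RefSeq on GRCm38.p6, written 5′ to 3′ on the gene's strand. In Hk2 (chr6:82774455-82774704, minus strand) and Pfkfb3 (chr2:11502091-11502340, minus strand, 1 of its 2 windows) capitals mark ACGTG on either strand, the core of the hypoxia response element, which is also contained in the E-box CACGTG. In G6pdx (chrX:74428881-74429130, minus strand) capitals mark TGACNNNGC on either strand, the core of the antioxidant response element.
Hk2: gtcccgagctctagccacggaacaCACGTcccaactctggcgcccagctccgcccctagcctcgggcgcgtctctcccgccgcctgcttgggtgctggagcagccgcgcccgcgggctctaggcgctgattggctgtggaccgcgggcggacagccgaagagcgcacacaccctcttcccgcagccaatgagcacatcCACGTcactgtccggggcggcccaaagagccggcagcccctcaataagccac
Pfkfb3: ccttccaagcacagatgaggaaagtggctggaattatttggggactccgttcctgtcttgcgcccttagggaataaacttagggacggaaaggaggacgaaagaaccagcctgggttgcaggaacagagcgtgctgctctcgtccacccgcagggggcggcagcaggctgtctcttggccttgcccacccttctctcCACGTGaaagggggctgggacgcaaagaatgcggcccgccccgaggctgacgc
G6pdx: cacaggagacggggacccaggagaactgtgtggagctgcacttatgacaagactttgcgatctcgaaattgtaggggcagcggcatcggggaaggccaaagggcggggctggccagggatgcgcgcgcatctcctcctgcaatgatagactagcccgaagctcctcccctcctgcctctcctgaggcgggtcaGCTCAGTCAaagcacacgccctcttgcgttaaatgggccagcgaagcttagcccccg
Windows were found for 51 of the 53 genes. ACGTG was present in 18 of these 51 (35.3%), against 18.5% of 27025 genes with a window, and CACGTG in 7 (13.7% against 6.86%). Among the genes past the threshold of the test described below, ACGTG was present in 1 of 7 higher genes (Hk2) and 1 of 10 lower genes (Pfkfb3), and in 16 of the 34 genes that did not pass. TGACNNNGC was present in 6 of the 51 genes (11.8% against 11.5%), namely 2 of 7 higher genes (G6pdx and Dlst), 0 of 10 lower genes and 4 of the 34 that did not pass (Aldoa, Hk1, Idh3g and Sucla2). A gene was counted if any of its windows held the match. Genes differ in their number of windows (6 for Ogdh, 4 for Pfkm and 1 for Hk2), and these shares are not adjusted for that. A match describes these letters and is no evidence of binding.

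Library totals ran from 10701425 to 15892640 counts, and levels are given as CPM (counts per 1000000, with library sizes scaled by TMM). Cd27, the sort marker, measured 35.4, 38.9 and 38.6 CPM over MODP libraries 1 to 3, against 4.57, 3.52 and 3.64 CPM for MOP. Of the other progenitor genes, Kit, Flt3 and Cd34 were 2.45-fold lower, 3.64-fold lower and 2.16-fold lower in MOP, and Csf1r, the M-CSF receptor, was 1.71-fold higher (edgeR adjusted p = 0.00064, 4.3e-05, 0.00039 and 0.0022). All of them were detected in every library, the lowest being Flt3 at 27.8 CPM. Markers of other marrow cells also differed. The 10 basophil and mast cell markers summed to 514 to 1086 CPM over MODP libraries and 3153 to 5001 CPM over MOP libraries, and 7 of 8 tested markers were higher in MOP. Among the protease genes of this list, Tpsb2 was at 0 in 5 of 6 libraries and Cma1 did not exceed 0.282 CPM. Cpa3, Mcpt8 and Prss34 were 3.66-fold, 6.7-fold and 8.56-fold higher in MOP (edgeR adjusted p = 0.005, 0.018 and 0.025). The 9 erythroid markers in the table summed to 164 to 586 CPM over MODP libraries and 418 to 739.6 CPM over MOP libraries, with 4 higher. The 10 T and NK cell markers summed to 224 to 293 CPM over MODP libraries and 67.5 to 109 CPM over MOP libraries, mostly from Nkg7, with 6 lower. The 10 neutrophil markers set replicate 2 of each group apart, at 16750 CPM for MODP and 11700 CPM for MOP against 2172 to 5009 CPM in the other 4 libraries. The 10 B cell markers summed to 47.3 to 152 CPM over MODP libraries and 45.7 to 91.8 CPM over MOP libraries. No listed marker in the table was at 0 in all 6 libraries.

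Between the populations, single enzymes differed in both directions and by small folds. Of the 53 genes, all of which passed the filter on low counts, 8 were higher in MOP and 10 lower by the quasi-likelihood test of edgeR, with p-values adjusted over all tested genes and a threshold of 0.05. The other 35 did not pass. That is 34% of the genes, against 31.2% of the 12850 genes tested (16.3% higher, 14.9% lower), so in this fit the share lies near the background. It was 37.7% of the 53 against 25.4% of all genes tested with DESeq2. The median log2 fold change of the 53 was -0.06, against -0.01 over all tested genes. The largest change was 1.56-fold, and 2 genes passed with at least 1.5-fold, G6pdx upward and Pdk1 downward, a size that 12.7% of all tested genes passed. No gene of the 53 passed with at least 2-fold, which 6.83% of all tested genes did. The groups did not overlap for 28 of the 53 genes (52.8%, against 47.6% of all tested genes), with MOP above MODP for 9 and below for 19. This split by direction was not counted over all tested genes, so it has no background beside it. Their median level of 141 CPM was above that of 86.9% of tested genes, and their median SE on the log2 scale was 0.06 against 0.11. In bulk samples such as these, fewer cells of a type and less RNA per cell cannot be told apart.

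With replicate numbers of the count columns as a block, 9 genes were higher and 17 lower. Calls rose across the table as well, to 2724 higher and 2544 lower, so that 49.1% of the 53 against 41% of all genes tested passed. The 8 genes added were Aldoa, which was higher, and Hk3, Ldha, Dlat, Idh3a, Idh3g, Mdh1 and Mdh2, which were lower. Under upper-quartile scaling the split was 7 higher and 18 lower (47.2% of the 53 against 32.2% of all genes tested). This scaling moved the median of all genes by -0.05 on the log2 scale and turned the whole table to 1692 higher and 2452 lower. Leaving out MODP replicate 1 gave 5 higher and 9 lower genes (26.4% of the 53 against 20.8% of all genes tested).

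**Figure D1:**
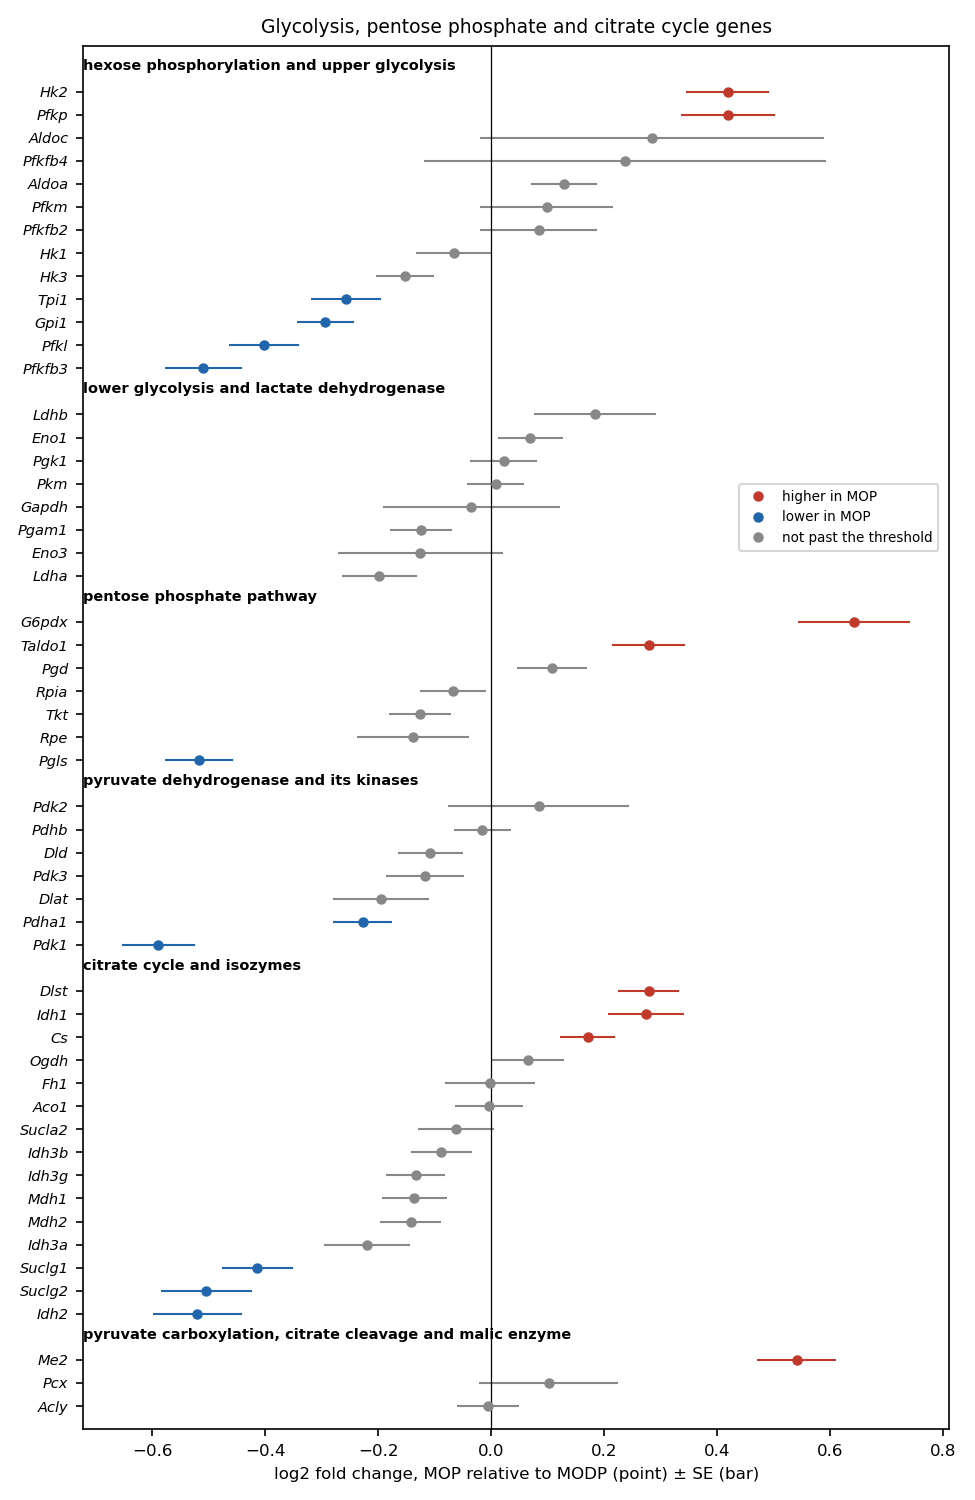
Log2 fold change of MOP relative to MODP for all 53 genes, by step of the pathway, with the SE from the edgeR fit of 3 against 3 libraries as bars; colour marks the result of the test. G6pdx lies farthest to the right at 0.64 and Pdk1 farthest to the left at -0.59, and none of the lower glycolysis genes passed the test. Among the latter, counts of Gapdh, Pkm, Pgk1 and Eno1 are uncertain because of sequence shared with other genes.

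Levels of different genes were compared per length, as CPM per kilobase of annotated exon. Among MODP libraries, Pkm (pyruvate kinase) had the highest counted level of the set at 328 ± 4.79 CPM per kb (SD, n = 3), followed by Aldoa at 226 ± 4.14 and Ldha at 183 ± 3.53. Next came Taldo1 and Tkt of the pentose phosphate pathway at 172 ± 12.1 and 169 ± 3.08 CPM per kb, and then Hk3 at 151 ± 3.79. On this length Taldo1 and Tkt did not differ beyond their spread. The order depends on the length used. Annotated exons of Tkt cover 7355 bases and its longest transcript 3223, against 2171 and 1362 for Taldo1. The lowest levels were those of Aldoc, an aldolase typical of brain, at 0.396 CPM per kb, and Pcx, pyruvate carboxylase, at 2.25 CPM per kb. Gapdh, usually among the most abundant transcripts of a cell, measured 4.25 CPM per kb for MODP and 4.16 for MOP. Up to 99.2% of the 31-mers of a Gapdh coding transcript also occur in other genes, so its count is uncertain. The same holds to a lesser degree for Pkm (59.6%), Pgk1 (68.3%), Pfkfb2 (75.4%) and Eno1 (77.2%), so the order of levels is one of counted reads.

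At the entry to glycolysis, changes differed by isozyme. Among 13 genes from hexokinase to triose phosphate isomerase, MOP had 2 higher and 4 lower, and 7 did not pass. Hk2 (ENSMUSG00000000628), the inducible hexokinase, measured 148, 141 and 143 CPM over MODP libraries 1 to 3, against 203, 171 and 203 CPM for MOP. Every MOP library lay above every MODP library, with MOP replicate 2 the nearest to MODP. Hk2 was 1.34-fold higher in MOP (log2 0.42 ± 0.07 SE, edgeR adjusted p = 0.004). Hk1 (ENSMUSG00000037012), the constitutive isozyme, measured 227, 247 and 238 CPM over MODP libraries 1 to 3, against 212, 246 and 222 CPM for MOP. These groups overlapped and the difference did not pass (log2 -0.07 ± 0.07 SE, edgeR adjusted p = 0.5). Hk3 (ENSMUSG00000025877), the hexokinase of myeloid cells, measured 543, 553 and 571 CPM over MODP libraries 1 to 3, against 483, 507 and 511 CPM for MOP. Each MOP library was lower, but the difference did not pass (log2 -0.15 ± 0.05 SE, edgeR adjusted p = 0.053), whereas it did when blocked by column number (edgeR adjusted p = 0.019).

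Phosphofructokinase catalyses the committed step, and its Pfkl and Pfkp genes moved in opposite directions. Pfkl (ENSMUSG00000020277), the liver type subunit, measured 139.9, 134 and 145 CPM over MODP libraries 1 to 3, against 104, 100.3 and 113 CPM for MOP. Levels were lower in each MOP library, and Pfkl was 1.32-fold lower (log2 -0.40 ± 0.06 SE, edgeR adjusted p = 0.0024). Pfkp (ENSMUSG00000021196), the platelet type subunit, measured 124, 119 and 133 CPM over MODP libraries 1 to 3, against 176, 147 and 181 CPM for MOP. All MOP libraries were higher, and Pfkp was 1.34-fold higher (log2 0.42 ± 0.08 SE, edgeR adjusted p = 0.0068). Pfkm, the muscle type subunit, measured 30.4 to 34.8 CPM across MODP libraries, against 30.3 to 40.7 CPM for MOP, and did not pass (log2 0.10 ± 0.12 SE, edgeR adjusted p = 0.57). The log2 ratio of Pfkp to Pfkl counts was -0.15 ± 0.02 for MODP and 0.67 ± 0.10 for MOP (SD, n = 3).

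Pfkfb3 (ENSMUSG00000026773) makes fructose 2,6-bisphosphate, the activator of phosphofructokinase, and measured 119, 129.5 and 131 CPM over MODP libraries 1 to 3, against 83.2, 95.5 and 87.7 CPM for MOP. The groups did not overlap, and Pfkfb3 was 1.42-fold lower in MOP (log2 -0.51 ± 0.07 SE, edgeR adjusted p = 0.0014). Its relatives Pfkfb2 and Pfkfb4 did not pass. Pfkfb4 was highest in replicate 2 of each group, at 51.5 and 50.3 CPM against 23.4 to 37.1 CPM in the other libraries, as the neutrophil markers were. Without both of these libraries Pfkfb4 was higher in MOP by log2 0.45 (edgeR adjusted p = 0.021). Over all alternatives its edgeR or DESeq2 adjusted p was 0.021 to 0.98.

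The isomerases of the upper pathway were lower. Gpi1 (ENSMUSG00000036427), glucose phosphate isomerase, measured 860.1, 906 and 874 CPM over MODP libraries 1 to 3, against 695, 725 and 734 CPM for MOP. All MOP libraries were lower, and Gpi1 was 1.23-fold lower (log2 -0.29 ± 0.05 SE, edgeR adjusted p = 0.0037). Tpi1, triose phosphate isomerase, measured 368 to 406 CPM across MODP libraries, against 305 to 340.0 CPM for MOP (log2 -0.26 ± 0.06 SE, edgeR adjusted p = 0.015). The call for Tpi1 was lost without MODP replicate 3 or MOP replicate 1 (edgeR or DESeq2 adjusted p 0.0027 to 0.076 across alternatives). Aldoa, the main aldolase, measured 646 to 669 CPM across MODP libraries, against 677 to 764 CPM for MOP, and did not pass (edgeR adjusted p = 0.13, and 0.049 when blocked by column number). Aldoc, the brain aldolase, stayed under 2 CPM in all libraries.

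**Figure D2:**
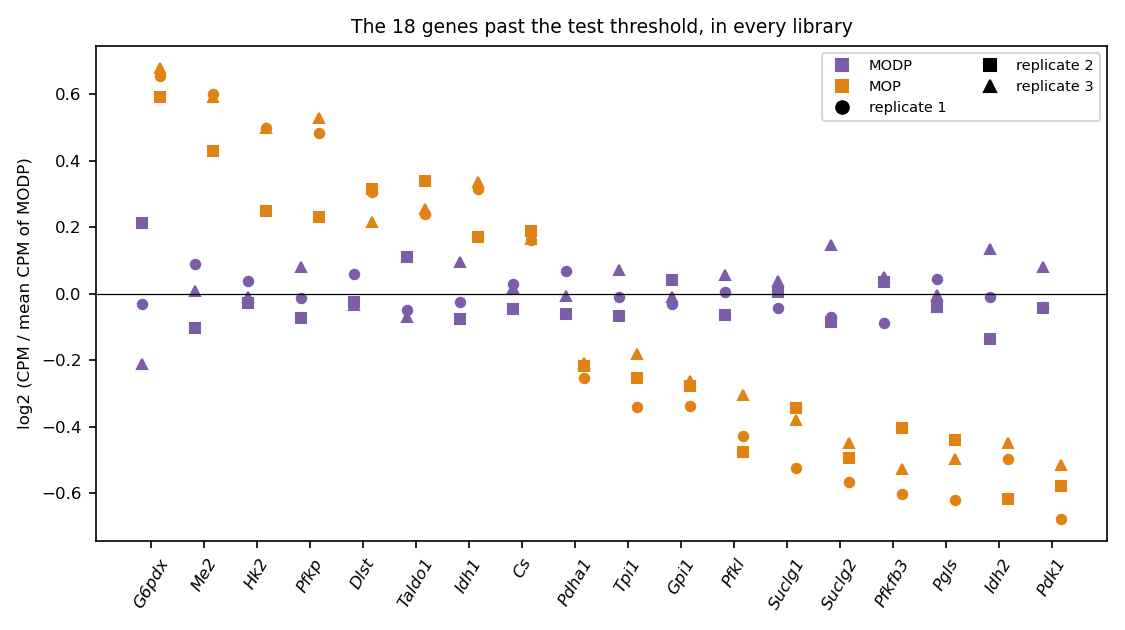
CPM of the 18 genes past the threshold in each library, as log2 of the ratio to the mean of the 3 MODP libraries; colour marks the group and symbol shape the replicate. For all 18 genes the MOP libraries lie on 1 side of the MODP libraries, and MOP replicate 2 is the lowest MOP library for 7 of them (G6pdx, Me2, Hk2, Pfkp, Idh1, Pfkl and Idh2).

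From Gapdh to lactate dehydrogenase, none of 8 genes passed edgeR's test after adjustment. Of these 8, 1 had an unadjusted p under 0.05, and DESeq2 called 1, Ldha, as lower. Pkm (ENSMUSG00000032294), pyruvate kinase, measured 1615, 1660 and 1651 CPM over MODP libraries 1 to 3, against 1591, 1636 and 1728 CPM for MOP. The groups overlapped and the difference did not pass (log2 0.01 ± 0.05 SE, edgeR adjusted p = 0.93). Ldha (ENSMUSG00000063229), the lactate dehydrogenase subunit that favours lactate, measured 605, 596 and 619 CPM over MODP libraries 1 to 3, against 492, 517 and 578 CPM for MOP. No MOP library reached the MODP levels, but the difference did not pass (log2 -0.20 ± 0.07 SE, edgeR adjusted p = 0.055), whereas it did when blocked by column number (edgeR adjusted p = 0.013). Gapdh (ENSMUSG00000057666), glyceraldehyde phosphate dehydrogenase, measured 20.1, 13.2 and 19.5 CPM over MODP libraries 1 to 3, against 17.2, 16.4 and 18.1 CPM for MOP, with overlap (log2 -0.04 ± 0.16 SE, edgeR adjusted p = 0.89). Pgk1 (phosphoglycerate kinase), Pgam1 (the mutase), Eno1 and Eno3 (enolases) and Ldhb had log2 fold changes of -0.13 to 0.18. Counts of Gapdh, Pkm, Pgk1 and Eno1 are uncertain, as given above. Coding transcripts of Ldha, Pgam1 and Ldhb share up to 48.8%, 42.1% and 41.4% of their 31-mers with other genes. The lack of calls among these genes is therefore uncertain too.

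The pentose phosphate pathway had its first enzymes move apart. Among 7 genes MOP had 2 higher and 1 lower, and 4 did not pass. G6pdx (ENSMUSG00000031400), glucose 6-phosphate dehydrogenase and the rate-limiting source of NADPH in the pathway, measured 243, 288 and 215 CPM over MODP libraries 1 to 3, against 391, 375 and 398 CPM for MOP. The MODP libraries spread widely, and the MOP libraries lay close together above them. G6pdx was 1.56-fold higher in MOP (log2 0.64 ± 0.10 SE, edgeR adjusted p = 0.0027). Pgls (ENSMUSG00000031807), the lactonase of the next step, measured 147, 139 and 142 CPM over MODP libraries 1 to 3, against 92.7, 105 and 101 CPM for MOP. Each MOP library was lower, and Pgls was 1.43-fold lower (log2 -0.52 ± 0.06 SE, edgeR adjusted p = 0.00074). Pgd (ENSMUSG00000028961), which yields further NADPH and ribulose 5-phosphate, measured 463, 522 and 482 CPM over MODP libraries 1 to 3, against 505, 536 and 539.9 CPM for MOP. These groups overlapped and the difference did not pass (log2 0.11 ± 0.06 SE, edgeR adjusted p = 0.22).

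In the non-oxidative branch, which rearranges sugar phosphates, Taldo1 was higher. Taldo1 (ENSMUSG00000025503), transaldolase, measured 361, 404 and 356 CPM over MODP libraries 1 to 3, against 441, 473 and 446 CPM for MOP. The groups did not overlap, and Taldo1 was 1.21-fold higher (log2 0.28 ± 0.06 SE, edgeR adjusted p = 0.013). This call was lost without MODP replicate 1 or MOP replicate 2 (edgeR or DESeq2 adjusted p 0.00058 to 0.055 across alternatives). Tkt, transketolase, measured 1225 to 1269 CPM across MODP libraries, against 1073 to 1183 CPM for MOP, and did not pass (log2 -0.13 ± 0.05 SE, edgeR adjusted p = 0.12). The isomerase Rpia and the epimerase Rpe had log2 fold changes of -0.07 and -0.14 and did not pass.

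At the gate to the citrate cycle, a kinase of pyruvate dehydrogenase was lower. Among 7 genes of the complex and its kinases, 2 were lower for MOP and 5 did not pass. Pdk1 (ENSMUSG00000006494), a kinase that inactivates the complex, measured 122.7, 122 and 134 CPM over MODP libraries 1 to 3, against 78.9, 84.5 and 88.4 CPM for MOP. The groups were far apart, and Pdk1 was 1.5-fold lower in MOP (log2 -0.59 ± 0.06 SE, edgeR adjusted p = 0.00057). Pdk2 and Pdk3, further kinases of the complex, measured 8.01 to 10.2 and 58.0 to 64.5 CPM across MODP libraries, and neither passed. Pdha1 (ENSMUSG00000031299), the catalytic subunit that these kinases phosphorylate, measured 191, 175 and 182 CPM over MODP libraries 1 to 3, against 153, 157 and 158 CPM for MOP. All MOP libraries were lower, and Pdha1 was 1.17-fold lower (log2 -0.23 ± 0.05 SE, edgeR adjusted p = 0.012). This call was lost without MODP replicate 1 or MOP replicate 1 (edgeR or DESeq2 adjusted p 0.0049 to 0.059 across alternatives). The other subunit genes Pdhb, Dlat and Dld had log2 fold changes of -0.02, -0.19 and -0.11 and did not pass. Dlat was lower when blocked by column number (edgeR adjusted p = 0.025). Exons of genes on the other strand overlap 16.1% of the exon length of Pdha1, 13.6% of that of G6pdx and 11.5% of that of Gpi1. For Pgls 20.6% is overlapped by another gene on the same strand. No other gene of the 18 past the threshold had an overlap above 10%. Among these 18, coding transcripts of Gpi1, Suclg2 and Tpi1 share up to 37.3%, 36.3% and 31.7% of their 31-mers with other genes. For G6pdx, Taldo1, Pdha1 and Pfkp the shares reach 26.8%, 25.2%, 20.8% and 17.4%, so shared sequence also limits some called genes.

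Genes of the citrate cycle and isozymes of its enzymes, among them the cytosolic Idh1, Aco1 and Mdh1, differed by gene. Among these 15 genes MOP had 3 higher and 3 lower, and 9 did not pass. Cs (ENSMUSG00000005683), citrate synthase, the entry step, measured 299.0, 284 and 297 CPM over MODP libraries 1 to 3, against 328, 334 and 328 CPM for MOP. All MOP libraries were higher by a small margin, and Cs was 1.13-fold higher (log2 0.17 ± 0.05 SE, edgeR adjusted p = 0.029). The call for Cs was lost in 8 of 14 alternatives (edgeR or DESeq2 adjusted p 0.013 to 0.12 across alternatives). These were upper-quartile scaling, no filter on low counts, and fits with fewer libraries. Such fits were without both libraries numbered 2, and without each of MODP replicates 1 and 3 and MOP replicates 1, 2 and 3.

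The NADP-dependent isocitrate dehydrogenases, which sit in different compartments, moved in opposite directions. Idh1 (ENSMUSG00000025950), the cytosolic enzyme, measured 131, 126 and 142 CPM over MODP libraries 1 to 3, against 165, 149.6 and 168 CPM for MOP. All MOP libraries were higher, and Idh1 was 1.21-fold higher (log2 0.27 ± 0.07 SE, edgeR adjusted p = 0.016). This call was lost when MODP replicate 1 or MOP replicate 1 or 3 was left out. Across alternatives the edgeR or DESeq2 adjusted p was 0.002 to 0.075. Idh2 (ENSMUSG00000030541), the mitochondrial enzyme, measured 310.3, 284 and 342 CPM over MODP libraries 1 to 3, against 221, 204 and 229 CPM for MOP. Levels were lower in each MOP library, and Idh2 was 1.43-fold lower (log2 -0.52 ± 0.08 SE, edgeR adjusted p = 0.0022). The log2 ratio of Idh1 to Idh2 counts was -1.23 ± 0.05 for MODP and -0.44 ± 0.02 for MOP (SD, n = 3). Idh3a, Idh3b and Idh3g, subunits of the NAD-dependent enzyme, had log2 fold changes of -0.22, -0.09 and -0.13 and did not pass. When blocked by column number Idh3a and Idh3g were lower (edgeR adjusted p = 0.018 and 0.042).

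Later in the cycle, Dlst was higher and subunits of succinate-CoA ligase were lower. Dlst (ENSMUSG00000004789), the transferase subunit of the oxoglutarate dehydrogenase complex, measured 221, 208 and 207 CPM over MODP libraries 1 to 3, against 262, 264 and 246 CPM for MOP. The groups did not overlap, and Dlst was 1.21-fold higher (log2 0.28 ± 0.05 SE, edgeR adjusted p = 0.0062). Ogdh (ENSMUSG00000020456), the first subunit of the same complex, measured 401, 369 and 398 CPM over MODP libraries 1 to 3, against 416, 379.8 and 427 CPM for MOP. These groups overlapped and the difference did not pass (log2 0.07 ± 0.06 SE, edgeR adjusted p = 0.48). Suclg1 (ENSMUSG00000052738), the shared alpha subunit of succinate-CoA ligase, measured 118, 122 and 125 CPM over MODP libraries 1 to 3, against 84.4, 95.8 and 93.4 CPM for MOP. No MOP library reached the MODP levels, and Suclg1 was 1.33-fold lower (log2 -0.41 ± 0.06 SE, edgeR adjusted p = 0.0021). Suclg2 (ENSMUSG00000061838), the beta subunit for GTP, measured 59.4, 58.9 and 69.1 CPM over MODP libraries 1 to 3, against 42.2, 44.3 and 45.7 CPM for MOP. These groups did not overlap either, and Suclg2 was 1.42-fold lower (log2 -0.50 ± 0.08 SE, edgeR adjusted p = 0.0027). Sucla2, the beta subunit for ATP, measured 72.5 to 83.2 CPM across MODP libraries, against 73.4 to 77.1 CPM for MOP, and did not pass (log2 -0.06 ± 0.07 SE, edgeR adjusted p = 0.53).

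The remaining genes of this group did not pass. Fh1, fumarate hydratase, and Aco1, the cytosolic aconitase, had log2 fold changes of 0.00 and 0.00 (SE 0.08 and 0.06). Mdh1 and Mdh2, the cytosolic and mitochondrial malate dehydrogenases, had log2 fold changes of -0.14 and -0.14, with all MOP libraries below all MODP libraries (edgeR adjusted p = 0.11 and 0.079). When blocked by column number both were lower (edgeR adjusted p = 0.043 and 0.033).

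At the branch points of pyruvate, citrate and malate, the malic enzyme was higher. Me2 (ENSMUSG00000024556), which turns malate into pyruvate in mitochondria, measured 148, 129.6 and 140.1 CPM over MODP libraries 1 to 3, against 211, 187 and 209.7 CPM for MOP. All MOP libraries were higher, and Me2 was 1.46-fold higher (log2 0.54 ± 0.07 SE, edgeR adjusted p = 0.0012). Acly (ENSMUSG00000020917), which cleaves citrate into acetyl-CoA for lipid synthesis, measured 402, 397 and 423 CPM over MODP libraries 1 to 3, against 398, 394 and 425 CPM for MOP. The groups overlapped and the difference did not pass (log2 -0.01 ± 0.05 SE, edgeR adjusted p = 0.95). Pcx (ENSMUSG00000024892), which carboxylates pyruvate to refill the cycle, was low at 11.8, 9.78 and 10.5 CPM over MODP libraries 1 to 3, against 11.1, 12.2 and 11.2 CPM for MOP, with overlap (log2 0.10 ± 0.12 SE, edgeR adjusted p = 0.58).

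Shares of isozymes within their families, from CPM per kb of exon, are given as a description. Hk3 held most of the hexokinase signal in both populations, at 74.4% ± 0.449 for MODP and 69.8% ± 0.785 for MOP (SD, n = 3), while Hk2 held 11.9% ± 0.483 and 16.6% ± 1.69. Pfkl held 52.4% ± 0.701 of phosphofructokinase for MODP and 40.9% ± 1.77 for MOP, and Pfkp 23.5% ± 0.631 and 32.4% ± 3.11. Idh1 held 28.5% ± 0.727 of the Idh1 and Idh2 pair for MODP and 40.8% ± 0.271 for MOP. Pdk1 held 37.7% ± 1.09 of the 3 kinase genes and then 30.1% ± 0.989, below Pdk3 in each population. Ldha held 89.7% ± 0.928 of the lactate dehydrogenase pair for MODP and 87.0% ± 0.417 for MOP. None of the shares named so far overlapped between the groups. In the same families, those of Hk1, Pfkm and Pdk2 did. So did those of Pfkfb2 and Pfkfb4 and of the aldolase, enolase and malate dehydrogenase genes. With 3 libraries in each group an exact permutation test cannot go below 0.1, so no test of these shares was made.

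**Figure D3:**
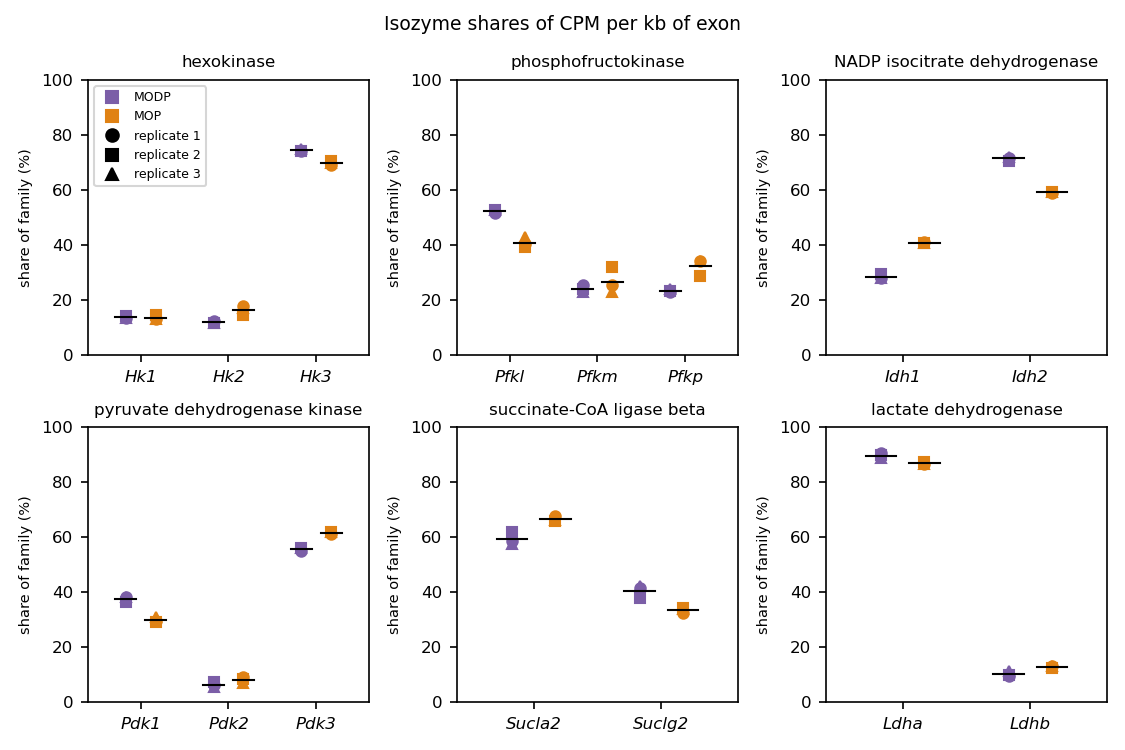
Share of each isozyme in the CPM per kb of its family, in percent, for each library; colour marks the group, symbol shape the replicate and the black line the mean of 3 libraries. Pfkl is at 52.4% for MODP and 40.9% for MOP and Idh1 at 28.5% and 40.8%, while Hk3 and Ldha hold the largest share of their families in both groups.

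The summed basophil and mast cell markers were lowest in replicate 2 among the MOP libraries (3153 CPM, against 4122 and 5001). Of the 8 genes higher in MOP, 5 were also lowest there (G6pdx, Hk2, Pfkp, Idh1 and Me2), and 3 were highest there (Taldo1, Cs and Dlst). Pfkl and Idh2, which were lower in MOP, were lowest there too. Among the MODP libraries the sum was highest in replicate 2 (1086 CPM, against 552 and 514). Of the 8 higher genes, Hk2, Pfkp, Idh1, Me2 and Cs were lowest there, and G6pdx and Taldo1 were highest. Without both replicate 2 libraries the log2 fold changes were 0.48 for Hk2, 0.47 for Pfkp, 0.29 for Idh1, 0.55 for Me2 and 0.79 for G6pdx. All 5 passed the edgeR test. The libraries left still differed in the basophil and mast cell sum (4122 and 5001 CPM for MOP, 552 and 514 CPM for MODP). This comparison therefore cannot separate these genes from those markers. Replicate 2 of each group also had the highest summed neutrophil markers (16750 CPM for MODP and 11700 CPM for MOP). The part of basophils, mast cells and neutrophils in the result was not tested.

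Other genes of the same pathways came from a list of 48, of which 46 were in the table and 37 passed the filter on low counts. For 4 of the 37 MOP was higher, for 5 it was lower and 28 did not pass, which is 24.3% called against 31.2% of all tested genes. Leaving out 1 library moved the 4 to between 2 (without MODP replicate 1) and 10 (without MODP replicate 2), and the 5 to 3 without MODP replicate 1, MODP replicate 3 or MOP replicate 3. Slc2a6, a hexose transporter, measured 21.1, 18.8 and 14.6 CPM over MODP libraries 1 to 3, against 45.8, 40.8 and 35.4 CPM for MOP, and was 2.25-fold higher (log2 1.17 ± 0.15 SE, edgeR adjusted p = 0.0013). Mpc2, a subunit of the mitochondrial pyruvate carrier, was also higher (log2 0.36 ± 0.08 SE, edgeR adjusted p = 0.0084), and its partner Mpc1 was at log2 -0.08 and did not pass. Pklr, the pyruvate kinase gene of liver and red cells, was 3.29-fold higher (log2 1.72 ± 0.34 SE, edgeR adjusted p = 0.016). On the other strand 22.0% of its exon length is overlapped. Of 9 tested erythroid markers 4 were also higher and 5 did not pass, and a link to Pklr was not tested. The call for Pklr was lost without a filter on low counts and without MODP replicate 1. Across alternatives its edgeR or DESeq2 adjusted p was 1.5e-09 to 0.061. Slc25a11, the oxoglutarate carrier, was higher (log2 0.25 ± 0.07 SE, edgeR adjusted p = 0.027).

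Among the lower genes of that list, Fbp1, the gluconeogenic fructose bisphosphatase, measured 11.8, 14.9 and 13.8 CPM over MODP libraries 1 to 3, against 5.67, 8.26 and 6.67 CPM for MOP, and was 1.95-fold lower (log2 -0.97 ± 0.17 SE, edgeR adjusted p = 0.0042). G6pc3, the widely expressed glucose 6-phosphatase, was 1.49-fold lower, at 110.4 ± 6.58 CPM for MODP and 74.3 ± 3.96 CPM for MOP (SD, n = 3, edgeR adjusted p = 0.00076). Prps2 and Prps1, which make phosphoribosyl pyrophosphate from ribose phosphate, had log2 fold changes of -0.45 and -0.20 (edgeR adjusted p = 0.0027 and 0.035), and Slc25a1, the citrate carrier, -0.29 (edgeR adjusted p = 0.042). The calls for Prps1, Slc25a1 and Slc25a11 were lost in 8, 5 and 5 of 14 alternatives. A few genes of the list were named after their values were seen. The succinate dehydrogenase genes Sdha, Sdhb, Sdhc and Sdhd had log2 fold changes of -0.07 to 0.15 and did not pass. Hif1a, a regulator of many glycolytic genes, was at 98.5 ± 4.53 CPM for MODP and 94.8 ± 3.00 CPM for MOP (SD, n = 3, edgeR adjusted p = 0.51).

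**Figure D4:**
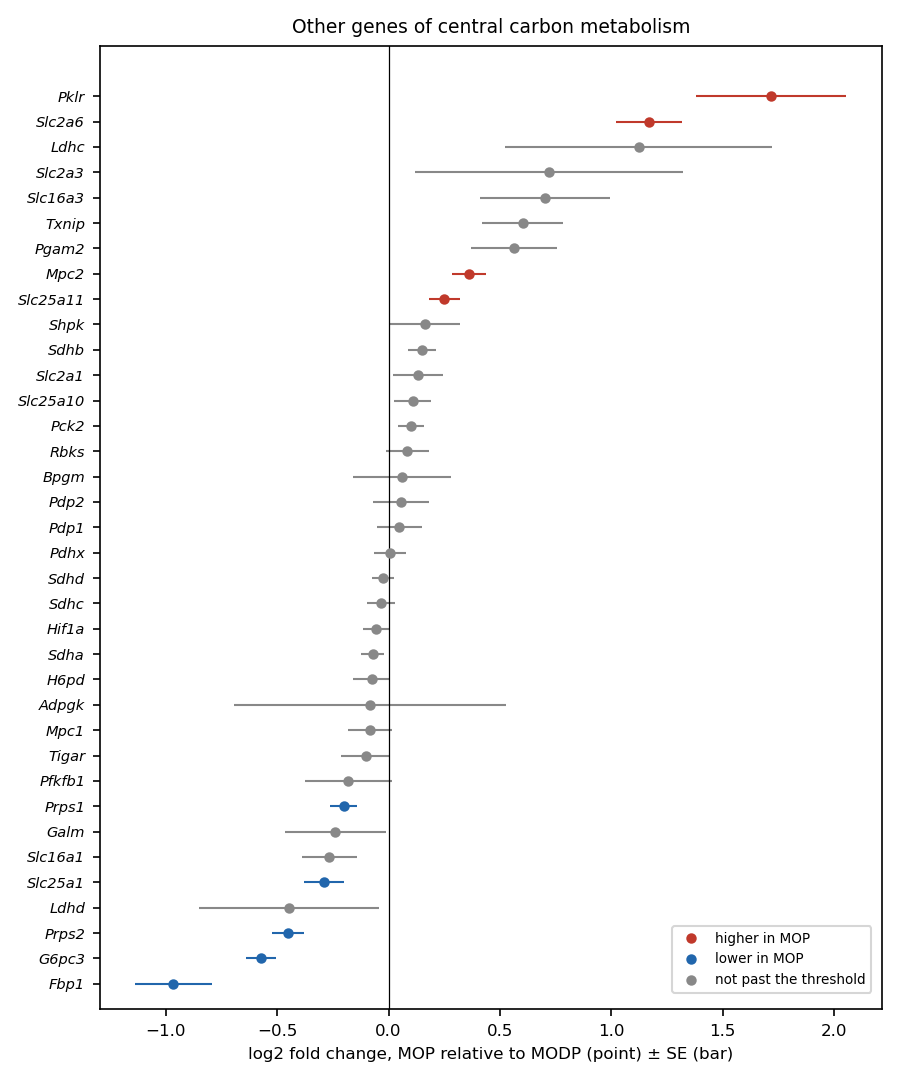
Log2 fold change of MOP relative to MODP for 36 of the 37 tested genes of the further list, with the SE from the edgeR fit of 3 against 3 libraries as bars; colour marks the result of the test. Pklr and Slc2a6 lie farthest to the right among the called genes, at 1.72 and 1.17, and Fbp1 farthest to the left at -0.97.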

How the data were processed

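Total RNA of sorted cells was made into libraries with Illumina's TruSeq RNA kit (extract protocol in the labels). The deposited values were raw read counts per Ensembl gene, without normalization. TopHat 1.4 and HTSeq are listed among the tools, per the submitters' processing notes. Genome build, annotation, strand setting and handling of reads that fit several genes: not given in the sources used here. Reads of overlapping and antisense genes therefore cannot be told apart. GENCODE M21 gave symbols for 20840 of 22271 identifiers, exon lengths, and the 31-mers shared between genes (at least 50% of a coding transcript: uncertain).

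Groups followed the cell type label. No label says that libraries came from separate animals, so a p-value here covers only library-to-library spread, part of which may be technical. Genes were kept by filterByExpr, counts were scaled by TMM (factors 0.983 to 1.03), and MOP was compared with MODP by edgeR 4.0.16 (R 4.3.3, robust quasi-likelihood test, no block), with Benjamini-Hochberg adjustment over 12850 genes. Every edgeR adjusted p is this value unless another setting is named. The scripts were tested on simulated counts. Alternatives were other scalings and filters, DESeq2 1.42.0, replicate blocks and left-out libraries. The genes and lists were chosen with earlier results of these data known.

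Replicate numbers differ between sample titles (WT1, WT2 and again WT1) and count columns (1, 2 and 3). Deviations from the group means correlated over 9351 genes at 0.59, 0.61 and 0.51 for libraries with the same column number. They correlated at -0.45 to 0.05 otherwise, so libraries of the same column number varied together. The main fit leaves out this pairing, which no label states. The blocked value is printed where it changes a call. Counts of libraries within a group differed by a chi-square of 7.35 to 34.7 per degree of freedom, so no pair held the same library. The closest pair in each group, replicates 1 and 3 (7.35 for MODP, 8.76 for MOP), is the one whose titles share the number WT1, and whether these share an animal or RNA is not known.

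Values in every library are printed for up to 5 genes with the smallest adjusted p past the threshold in each step, and for Hk1, Hk2, Hk3, Pfkl, Pfkp, Pkm, Gapdh, Ldha, G6pdx, Pgd, Pdk1, Cs, Idh1, Idh2, Ogdh, Pcx and Acly. Of the other pathway genes, up to 5 with the smallest adjusted p in each direction are named. Of that list, 1 gene is counted in its totals and is not reported here.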

Additional observations from a re-analysis of the deposited data

How the results depend on the processing

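Of the 18 genes past the threshold, 13 passed it in all 14 alternatives and 5 lost the call in at least 1; none of the 18 changed direction in them. Of the 35 genes that did not pass, 24 passed in none of the 14 alternatives. Ldha and Idh3a passed, as lower in MOP, in 7 of the 14, Hk3 in 5 and Idh3g in 3. The counts of genes higher and lower in MOP were 8 and 10. Without 1 library they were 5 to 8 and 8 to 15, the 5 being without MODP replicate 1. The lower genes were 18 under upper-quartile scaling and 17 with the replicate block by column number, which lost no call; with the block by title number 8 were higher and 13 lower. Over all genes tested, 32.2%, 41% and 37.6% were called under these settings, against 31.2%. The median log2 fold change of -0.0621 became -0.116 under upper-quartile scaling, -0.0828 without both libraries numbered 2, and -0.0622 to -0.0272 without 1 library (-0.0272 without MOP replicate 1, -0.0395 without MOP replicate 2). Of the other pathway genes, 5 lower became 3 with DESeq2 and without MODP replicate 1, MODP replicate 3 or MOP replicate 3, and 3 to 5 without 1 library. The 4 higher became 8 without both libraries numbered 2 and 2 to 10 without 1 library, the 2 without MODP replicate 1 and the 10 without MODP replicate 2. With the longest transcript as gene length, chosen after seeing the data, the share of Hk2 was 10.3% for MODP and 14.4% for MOP, and that of Idh1 24.9% and 36.5%. The cause of these changes was not tested. Depth limits low genes such as Aldoc, with as few as 14 counts in a library.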

Other observations

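Some genes of glucose handling, named after their values were seen, were highest in replicate 2 of each group. Adpgk, an ADP-dependent glucokinase, measured 117, 303 and 103 CPM over MODP libraries 1 to 3, against 101, 249.1 and 142 CPM for MOP. Slc2a3, a glucose transporter, measured 50.8, 152 and 39.7 CPM over MODP libraries 1 to 3, against 125, 159.8 and 112 CPM for MOP. The difference for Slc2a3 did not pass (log2 0.72 ± 0.60 SE, edgeR adjusted p = 0.44). Without MODP replicate 2 it was log2 1.55 (edgeR adjusted p = 0.0064). In all alternatives the edgeR or DESeq2 adjusted p of Slc2a3 ranged from 0.00046 to 0.71. Slc16a3, a lactate exporter, measured 20.6, 35.9 and 19.5 CPM over MODP libraries 1 to 3, against 34.3, 51.3 and 37.4 CPM for MOP. It did not pass (edgeR adjusted p = 0.13) and was higher when blocked by column number (edgeR adjusted p = 0.00058). The summed neutrophil markers were also highest in replicate 2 of each group, and their part in these values was not tested.
Txnip, which limits glucose uptake, measured 138, 185 and 112 CPM over MODP libraries 1 to 3, against 223, 225 and 212 CPM for MOP, with edgeR adjusted p = 0.054, and 0.041 when blocked by column number.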
